A study of Mus musculus with 4 samples.

Results

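The genes described here encode 10 components of the activin and transforming growth factor beta (TGF-beta) pathway in the mouse dentate gyrus (DG): the ligand subunits Inhba and Tgfb2, the activin-binding protein Fst, the type I receptors Acvr1, Acvr1b and Tgfbr1, the type II receptors Acvr2a and Tgfbr2, and the intracellular proteins Smad3 and Smad7. They were chosen by name. Each probe set that the array's annotation pairs with 1 of these genes and no other was taken. This gave 21 of 22626 probe sets, and 10 of the 12393 genes that the annotation names singly.

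Ligands of this family are secreted dimers that bring type II and type I receptors together at the cell surface. The type II receptor phosphorylates the type I receptor, which in turn phosphorylates receptor-regulated Smads, and these enter the nucleus with Smad4 to regulate transcription. Follistatin, the product of Fst, holds activin away from its receptors, and Smad7, itself a target of the pathway, blocks the activated type I receptor. In the hippocampus, Inhba is known as a gene that follows neuronal activity, and activin as a modulator of excitatory synapses.

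The DG of C57Bl/6 mice was examined in 4 pools of RNA: after electroconvulsive stimulation (ECS, 11 sessions at 4 per week for 3 weeks, under isoflurane), after sham handling without the shock, after the serotonin reuptake inhibitor fluoxetine (22 mg/kg per day for 28 days in drinking water with 0.2% saccharin), and after vehicle for the same 28 days, which the label calls water. According to the methods the mice were males bought at 8 weeks of age. The labels give 6 h after the last session for the ECS and sham pools, whereas the methods give 24 h, and which holds was not resolved. Transmission from mossy fibers was recorded in slices of the same mice: the design text says that 3 samples with small frequency facilitation were taken, and the methods apply this choice to fluoxetine. The size of each control pool was not given in the sources used here. As each pool was hybridized to 1 Affymetrix mouse genome 430A array, no difference between pools has a replicate error, and no test was made.

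The values are signals computed by the authors with the MAS5 algorithm, and they had not been brought to a common level. The median signal past the filter was 219.3 on the ECS array, 236.4 on the sham array, 365.4 on the fluoxetine array and 335.0 on the vehicle array. Each comparison is given as the log2 ratio of the treated signal to its own control, and a probe set was called higher or lower at 1.5-fold. Over the 13422 probe sets whose signal averaged 50 or more on the 4 arrays, the median log2 ratio was -0.10 for ECS and 0.12 for fluoxetine, and values after median-centring of each array are given where they alter a member's call or a count. The centred log2 ratio of the sham to the vehicle pool shows how far the control pools, called untreated below, differed. By the methods, sham mice went through the same procedure as ECS mice except for the shock, so the pools of this ratio differed in handling as well. The control spread is the scaled median absolute deviation of that ratio over the 500 probe sets nearest in signal. Among markers listed for this tissue, 6 of 6 granule cell genes on the array passed the filter, Prox1 among them, whereas 1 of 5 choroid plexus genes did. That gene was Kl, with signals of 53.9, 70.6, 76.3 and 129.6 in the ECS, sham, fluoxetine and vehicle pools, while the defining gene Ttr had 17.0, 16.8, 18.6 and 15.2.

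Among the members, Inhba, Acvr1 and Tgfbr2 were higher after both treatments, Acvr2a was lower after both, Tgfbr1 was lower and Smad7 higher after ECS, and Tgfb2 was lower after fluoxetine. Signals of a pool do not tell apart more cells of a type and more RNA per cell, here or for any gene below. Of the 21 probe sets, 12 passed the filter, and they represent 8 of the 10 genes; Fst and Smad3 had no probe set past it. With ECS, 4 of the 12 were called higher and 3 lower, against 3.81% and 6.52% of all probe sets. With fluoxetine, 4 were called higher and 4 lower, against 8.65% and 3.11%. Called in the same direction by both treatments were 3 higher and 1 lower, against 2.61% and 1.66%. Once each array was centred on its median, the counts for ECS became 4 higher and 2 lower (background 5.31% and 4.16%), those for fluoxetine stayed at 4 and 4 (5.69% and 4.94%), and those for both stayed at 3 and 1 (2.82% and 1.66%). Several of these probe sets belong to 1 gene, and the genes were chosen with earlier results of these arrays known, so that these counts are a description.

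**Figure D1:**
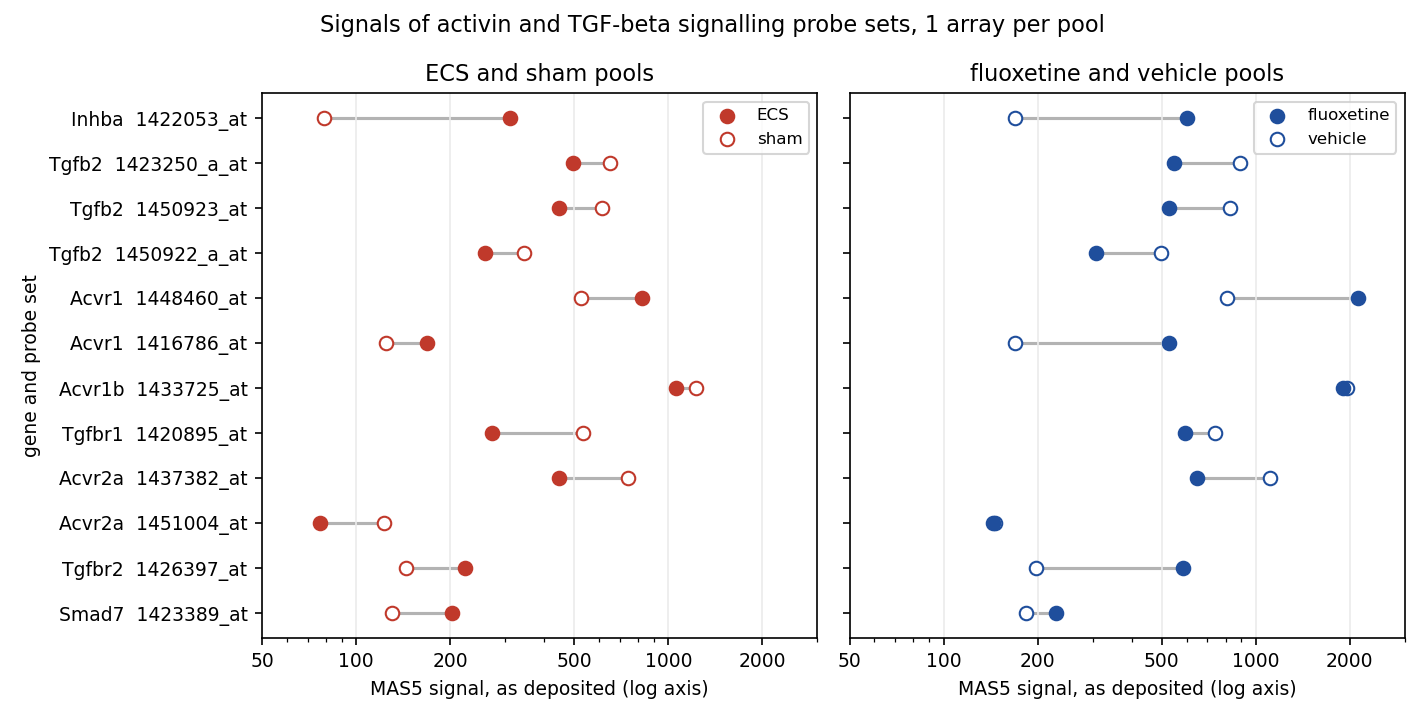
MAS5 signals (log axis) of the 12 member probe sets past the filter in the ECS and sham pools (left) and in the fluoxetine and vehicle pools (right), each point being 1 array of pooled RNA. Inhba, Acvr1, Tgfbr2 and Smad7 lie to the right of their controls in both panels, and Tgfb2, Tgfbr1 and Acvr2a to the left.

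The members had ratios of both signs, so that a median over them hides their size. The median log2 ratio of the 12 probe sets was -0.30 with ECS and -0.03 with fluoxetine, beside -0.10 and 0.12 over all probe sets. Regardless of direction, the median distance from 0 after median-centring was 0.60 with ECS and 0.82 with fluoxetine, beside 0.19 in each comparison over all probe sets. Between the untreated pools it was 0.06 for the members and 0.14 for all probe sets. Only 1 of the 12 members, Inhba, differed 1.5-fold between the untreated pools, where 3.71% of all probe sets did. The sign was the same with ECS and with fluoxetine for 12 of 12 probe sets, beside 57.6% of all probe sets, or 66.7% of them after median-centring. The comparisons share no array, but the 12 probe sets represent 8 genes chosen with earlier results of these arrays known. The shared sign is therefore a description only. It includes fluoxetine ratios of -0.02 (Acvr2a, 1451004_at) and -0.04 (Acvr1b), inside control spreads of 0.29 and 0.15. With control arrays exchanged after median-centring, Acvr1b had 0.01 for fluoxetine over sham.

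To show what lies before an annotated start of a member that was higher with both treatments, of a receptor that was higher above all with fluoxetine and of a ligand that was lower, the 250 bases before 1 RefSeq start each of Inhba, Acvr1 and Tgfb2 are given below (build GRCm38.p6). They lie at chr13:16011601-16011850 on the plus strand, chr2:58566829-58567078 on the minus strand and chr1:186705990-186706239 on the minus strand. The window of Acvr1 adjoins the outer end of its gene, but those of Inhba and Tgfb2 lie inside the annotated span of the gene, before an inner start. Which start these cells use was not measured. Capitals mark each CG pair and the run TATAAA.
Inhba: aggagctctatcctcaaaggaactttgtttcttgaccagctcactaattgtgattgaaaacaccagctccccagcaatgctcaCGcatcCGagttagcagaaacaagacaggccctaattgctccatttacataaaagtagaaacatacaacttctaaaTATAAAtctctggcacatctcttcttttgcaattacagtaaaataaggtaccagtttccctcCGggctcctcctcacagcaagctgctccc
Acvr1: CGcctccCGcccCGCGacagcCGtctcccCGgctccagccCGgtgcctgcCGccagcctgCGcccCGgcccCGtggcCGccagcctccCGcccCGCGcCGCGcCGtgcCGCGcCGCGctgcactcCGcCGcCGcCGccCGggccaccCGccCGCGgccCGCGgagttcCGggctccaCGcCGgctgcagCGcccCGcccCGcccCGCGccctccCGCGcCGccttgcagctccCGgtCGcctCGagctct
Tgfb2: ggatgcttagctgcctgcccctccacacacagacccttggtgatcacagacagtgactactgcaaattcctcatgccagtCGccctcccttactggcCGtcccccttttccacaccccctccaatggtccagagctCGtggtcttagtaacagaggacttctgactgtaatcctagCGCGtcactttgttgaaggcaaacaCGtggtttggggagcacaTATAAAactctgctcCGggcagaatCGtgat

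The windows differ in base composition. That of Inhba holds 3 CG pairs and 43.2% G and C, that of Tgfb2 8 pairs and 53.6%, and that of Acvr1 46 pairs and 85.6%, beside medians of 6 pairs and 52.4% over 32851 windows. Of 8 member genes with a window, the receptors Acvr2a and Acvr1b had 49 and 42 CG pairs, whereas Tgfbr2 had 12. Tgfbr1 has 2 windows, with 29 and 3 pairs. The run TATAAA, searched on the gene's strand after the sequences had been read, begins 31 bases before that start of Tgfb2 and 91 bases before that of Inhba, and 7.59% of all windows hold it. On either strand, no member window held the CRE palindrome TGACGTCA (1.55% of all windows), the AP-1 site TGANTCA (6.75%), the Smad palindrome GTCTAGAC (0.167%) or the Egr site GCGTGGGCG (0.536%). This says only that those letters are not within these 250 bases.

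Inhba encodes the beta A subunit, which dimerizes to form activin A. Its only probe set (1422053_at) had a signal of 311.0 in the ECS pool and 78.8 in the sham pool, and of 600.5 in the fluoxetine pool and 168.8 in the vehicle pool. Each treated pool was thus well above its control, and also above the control of the other treatment. This was 3.95-fold over sham (log2 ratio 1.98) and 3.56-fold over vehicle (1.83), where the control spread was 0.18. Counted from the top among the 13422 probe sets, these ratios took place 47 with ECS and 83 with fluoxetine. The untreated pools themselves were not alike for Inhba, since their centred log2 ratio, sham over vehicle, was -0.60. With the control arrays exchanged after median-centring, the log2 ratio was 1.49 for ECS over vehicle and 2.30 for fluoxetine over sham.

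Tgfb2, which encodes the ligand TGF-beta 2, was lower in the fluoxetine pool by all 3 of its probe sets. For the brightest (1423250_a_at) the signal was 493.7 in the ECS pool and 649.1 in the sham pool, and 548.6 in the fluoxetine pool and 888.2 in the vehicle pool. The log2 ratio of the 3 probe sets lay between -0.46 and -0.39 with ECS, and between -0.70 and -0.65 with fluoxetine. With ECS the signal was thus 72.9% to 76.1% of sham, short of a call, and with fluoxetine 61.8% to 63.6% of vehicle. Between the untreated pools the ratios were -0.02 to 0.07 and the control spread 0.15 to 0.18. All 3 were read on the same arrays, so that their closeness says nothing of the spread between animals.

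Fst, which encodes follistatin, did not pass the signal filter. Its probe set had signals of 6.2 in the ECS pool and 23.1 in the sham pool, and of 62.3 in the fluoxetine pool and 59.9 in the vehicle pool. At such low signals no fold is given.

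Among type II receptors, Acvr2a, a receptor for activins, was lower with both treatments by its brighter probe set. That probe set (1437382_at) had signals of 444.8 in the ECS pool and 743.0 in the sham pool, and of 646.7 in the fluoxetine pool and 1112.1 in the vehicle pool. This gave log2 ratios of -0.74 and -0.78, beside -0.08 between the untreated pools and a control spread of 0.15. The treated signals were 59.9% of sham and 58.2% of vehicle. The dimmer probe set (1451004_at) gave another picture for fluoxetine: 76.6 in the ECS pool and 122.4 in the sham pool, but 144.4 in the fluoxetine pool and 146.1 in the vehicle pool. Its log2 ratio of -0.68 with ECS became -0.57 after median-centring, short of a call, and that with fluoxetine was -0.02, at a control spread of 0.29. The lower level of Acvr2a with fluoxetine therefore rests on 1 of the 2 probe sets.

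Tgfbr2, the type II receptor for TGF-beta, was on the contrary higher with both. Its signal (1426397_at) was 223.7 in the ECS pool and 143.9 in the sham pool, and 583.7 in the fluoxetine pool and 197.6 in the vehicle pool. These are 1.55-fold (log2 ratio 0.64) and 2.95-fold (1.56), and the untreated pools differed by 0.05, at a control spread of 0.19. With ECS it was therefore just past the size of a call. The other probe sets of Tgfbr2 had signals of at most 7.4 in any pool.

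Acvr1, a type I receptor best known for signals of bone morphogenetic proteins, had the brightest of these increases. Its main probe set (1448460_at) had a signal of 820.9 in the ECS pool and 524.7 in the sham pool, and of 2118.2 in the fluoxetine pool and 808.5 in the vehicle pool. The ECS pool was thus 1.56-fold over sham (log2 ratio 0.65) and the fluoxetine pool 2.62-fold over vehicle (1.39), beside -0.12 between the untreated pools and a control spread of 0.15. A further probe set (1416786_at), with signals of 168.1 in the ECS pool and 124.7 in the sham pool, and of 528.1 in the fluoxetine pool and 169.9 in the vehicle pool, had log2 ratios of 0.43 and 1.64. Both probe sets were thus higher after fluoxetine, while only the brighter was past 1.5-fold after ECS. The third had signals below 50 in all 4 pools.

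Tgfbr1, the type I receptor for TGF-beta, was lower after ECS. Its signal (1420895_at) was 272.7 in the ECS pool and 532.4 in the sham pool, and 591.2 in the fluoxetine pool and 739.1 in the vehicle pool. The ECS signal was 51.2% of sham, a log2 ratio of -0.97 at a control spread of 0.18, and the fluoxetine signal was 80.0% of vehicle, a log2 ratio of -0.32 and short of a call. The untreated pools differed by 0.03. The other probe sets of Tgfbr1 had signals of at most 19.9 in any pool. In both comparisons the receptors of TGF-beta thus had ratios of opposite sign, Tgfbr2 above and Tgfbr1 below its control, although Tgfbr1 was called with ECS only.

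Acvr1b, the type I receptor that activin uses, was the only member gene past the filter with no call in either comparison. Its signal (1433725_at) was 1059.1 in the ECS pool and 1224.4 in the sham pool, and 1904.6 in the fluoxetine pool and 1957.1 in the vehicle pool. The log2 ratios were -0.21 and -0.04, and that between the untreated pools was -0.17 at a control spread of 0.15. No call was made, and without replicates this does not show that Acvr1b stayed the same. A dimmer probe set of Acvr1b had signals of at most 26.9.

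Smad7, the inhibitory Smad, had a signal (1423389_at) of 202.6 in the ECS pool and 130.2 in the sham pool, and of 229.6 in the fluoxetine pool and 183.1 in the vehicle pool. It stood at 1.56-fold after ECS (log2 ratio 0.64) and 1.25-fold after fluoxetine (0.33), beside 0.01 between the untreated pools and a control spread of 0.23. It was therefore called with ECS only, and the difference between the treatments was not tested. Smad3, which carries activin and TGF-beta signals to the nucleus, did not pass the filter. Its brighter probe set (1450472_s_at) had signals of 34.2 in the ECS pool, 30.2 in the sham pool, 70.4 in the fluoxetine pool and 45.5 in the vehicle pool. In all, the 9 member probe sets below the filter had mean signals of at most 45.1, whereas the lowest mean among those past it was 122.4.

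**Figure D2:**
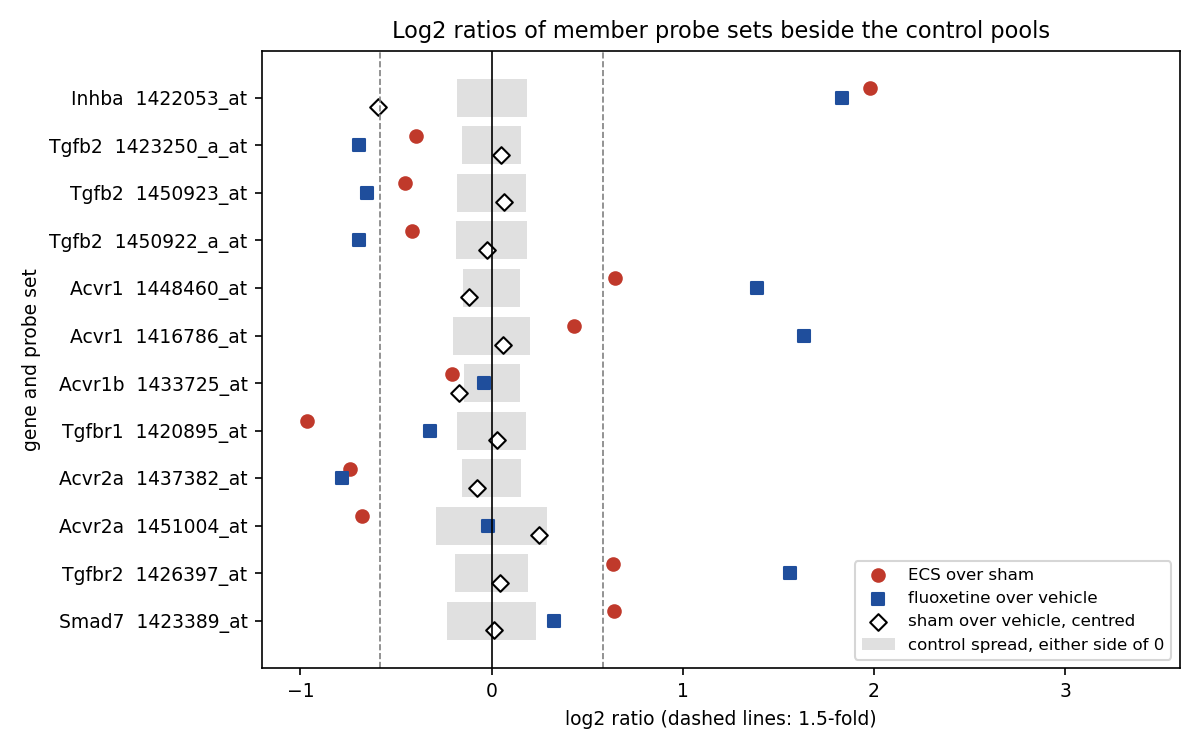
Log2 ratios of the 12 member probe sets for ECS over sham (circles), fluoxetine over vehicle (squares) and sham over vehicle after centring (diamonds), with grey bars for the control spread on either side of 0 and dashed lines at 1.5-fold. Inhba stands at 1.98 and 1.83, with its diamond at -0.60, and the diamonds of the other 11 probe sets lie between -0.17 and 0.25.

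Other genes of the pathway were taken from a list of 110 genes of activin, TGF-beta and bone morphogenetic protein signalling. Of these, 91 are on the array by this annotation, and 52 had a probe set past the filter, the brightest of which was used. With ECS, 9 were called higher and 2 lower, against 3.84% and 6.47% of 7935 genes. With fluoxetine, 21 were called higher and 1 lower, against 8.51% and 3.26%. In both comparisons 8 were higher and 1 lower, against 2.79% and 1.9%. The median log2 ratio of the 52 genes was 0.10 with ECS and 0.34 with fluoxetine, beside -0.10 and 0.12 over all genes. On median-centred arrays the ECS counts were 11 higher and 1 lower (background 5.34% and 4.18%), the fluoxetine counts 19 and 2 (5.82% and 5.13%), and those for both 9 and 1 (3.04% and 1.88%).

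**Figure D3:**
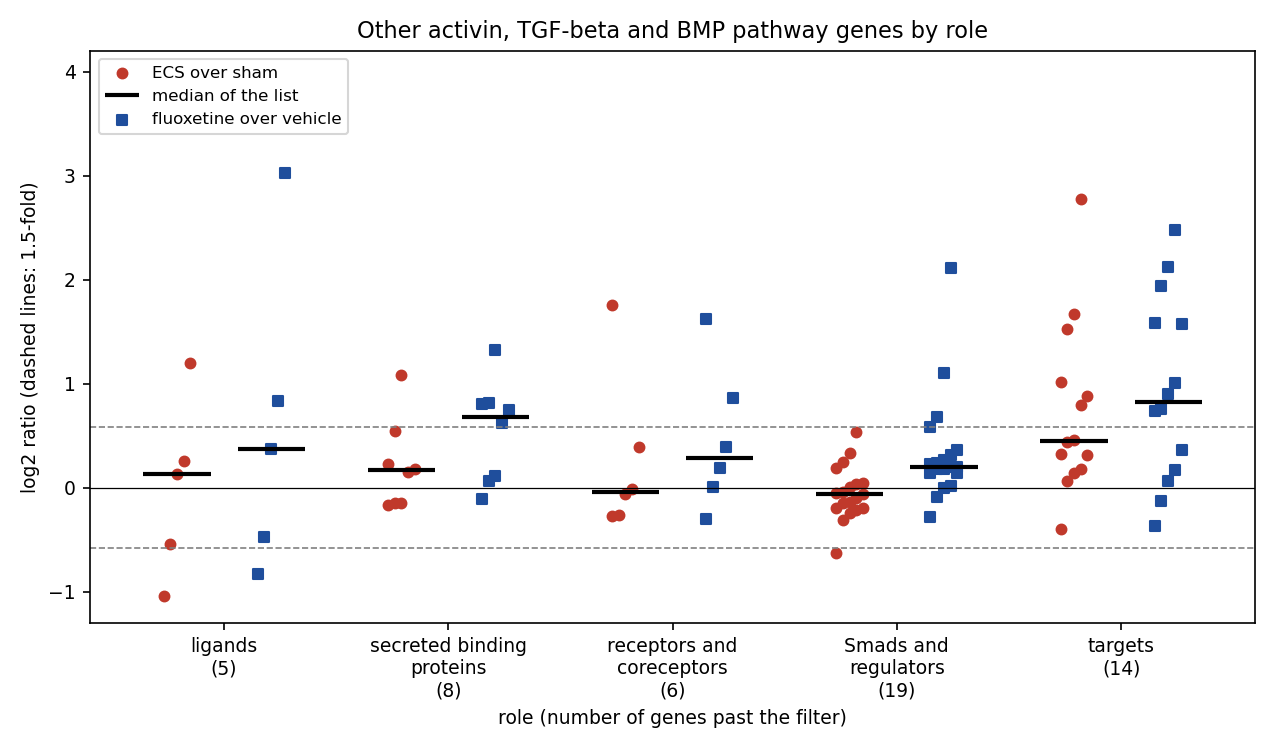
Log2 ratios of the 52 other pathway genes past the filter by role, for ECS over sham (circles) and fluoxetine over vehicle (squares); a point stands for 1 gene by its brightest probe set, a black bar for the median of a role, and dashed lines mark 1.5-fold. The targets have the highest medians, at 0.45 with ECS and 0.83 with fluoxetine, and the Smads and their regulators lie mostly between the dashed lines.

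Of the other ligands, 5 of 20 on the array passed the filter. Tgfb3, which encodes TGF-beta 3, had signals of 70.3 in the ECS pool and 30.7 in the sham pool, and of 388.9 in the fluoxetine pool and 47.7 in the vehicle pool. The log2 ratio with fluoxetine was 3.03 (8.15-fold). With ECS it was 2.29-fold higher, but its log2 ratio was 0.49, short of a call, when signals below 50 were taken as 50. It ran against Tgfb2, the other TGF-beta ligand past the filter. Gdf10, a ligand of the bone morphogenetic protein group, was lower with both: 137.0 in the ECS pool and 281.3 in the sham pool, and 195.4 in the fluoxetine pool and 347.9 in the vehicle pool, or log2 ratios of -1.04 and -0.83.

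Of the other receptors and coreceptors, 6 of 12 passed. With ECS 1 was called higher and with fluoxetine 2, beside 3.84% and 8.51% of all genes. With both treatments 1 was called higher, beside 2.79%. This was Acvr1c, a type I receptor for nodal and activin B, with signals of 112.1 in the ECS pool and 33.3 in the sham pool, and of 194.8 in the fluoxetine pool and 63.5 in the vehicle pool. The log2 ratios were 1.75 and 1.62, and 1.16 with ECS when signals below 50 were taken as 50. Like Inhba, Acvr1c was lower in the sham than in the vehicle pool, with a difference of -0.43 on the centred log2 scale. Of the 8 secreted binding proteins past the filter, 1 was called higher with ECS and 5 with fluoxetine, beside 3.84% and 8.51% of all genes. After median-centring these were 2 and 4, beside 5.34% and 5.82%. In either comparison 0 were lower, beside 6.47% and 3.26%, and among 8 genes a count of 0 is near those shares. Nbl1, an antagonist of bone morphogenetic proteins, had log2 ratios of 1.08 and 0.82, and Dcn, a matrix proteoglycan that binds TGF-beta, 0.22 and 1.32.

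Of the 19 Smads and regulators past the filter, 15 were called in neither comparison, 1 was lower with ECS and 3 were higher with fluoxetine, beside 6.47% and 8.51% of all genes. On median-centred arrays the ECS calls were 1 higher and 0 lower, and those for fluoxetine 2 higher, so that this list had no settled direction with ECS. Smad4, the common partner, had log2 ratios of 0.01 and 0.24, and Smad2 0.04 and 0.14. The exception by size was Pmepa1, a TGF-beta-induced membrane protein that holds receptor Smads away from the receptor. Its brightest probe set had signals of 197.0 in the ECS pool and 135.7 in the sham pool, and of 1052.9 in the fluoxetine pool and 244.3 in the vehicle pool, or log2 ratios of 0.54 and 2.11. The ECS ratio became 0.65 after median-centring, which is a call. The other probe sets of Pmepa1 had log2 ratios of 0.74 and 1.25 with ECS, and of 2.48 and 4.03 with fluoxetine. The larger ratios belong to a probe set with signals of 31.9 in the sham pool and 32.3 in the vehicle pool, and with signals below 50 taken as 50 they were 0.60 and 3.40. All 3 probe sets were called higher with fluoxetine. Ski, a corepressor of Smads, was 2.15-fold higher with fluoxetine, and its log2 ratio with ECS was 0.33.

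The targets were a list of 22 genes that TGF-beta family signals are known to induce or repress in various cells, and 14 passed the filter. Higher calls numbered 6 for ECS, 9 for fluoxetine and 5 for the 2 together, beside 3.84%, 8.51% and 2.79% of all genes. In either comparison 0 of the 14 were lower, beside 6.47% with ECS and 3.26% with fluoxetine, which is near those shares for so few genes. Klf10, first described as an early gene induced by TGF-beta, had signals of 297.9 in the ECS pool and 219.7 in the sham pool, and of 1662.7 in the fluoxetine pool and 381.0 in the vehicle pool, or log2 ratios of 0.44 and 2.13. Cdkn1a, an inhibitor of the cell cycle, had 1.53 and 1.93, while between the untreated pools sham exceeded vehicle by 0.87. The matrix genes Col3a1, Col1a2 and Fn1 had log2 ratios of 1.67, 1.02 and 0.88 with ECS and of 2.47, 1.58 and 0.90 with fluoxetine. For them sham exceeded vehicle by 0.595, 0.26 and 0.40. Col3a1 had signals below 50 in both control pools, and with these taken as 50 its ratios were 1.44 and 2.15. Cited2, a transcriptional regulator, had 0.79 and 0.73. A dimmer probe set of Cited2 had 0.69 and 0.53, short of a call with fluoxetine, and 0.42 with ECS when signals below 50 were taken as 50. Ccn2 and Tgfbi, both secreted matrix proteins, had 1.58 and 1.00 with fluoxetine and were not called with ECS, at 0.46 and 0.14. Junb, a part of the AP-1 factor, was the reverse, with 2.77 for ECS and -0.13 for fluoxetine. Ccn2 and Tgfbi had signals below 50 in both control pools, and with these taken as 50 the fluoxetine ratios were 1.26 and 0.81. For them sham exceeded vehicle by 0.40 and 0.61. After median-centring, fluoxetine over sham was 0.37 for Fn1, 0.34 for Cited2 and 0.26 for Tgfbi, short of a call. For Col3a1, Col1a2 and Ccn2 it was 1.75, 1.19 and 1.06. Most of these targets answer to other signals too, and none was tested for its dependence on this pathway.

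**Figure D4:**
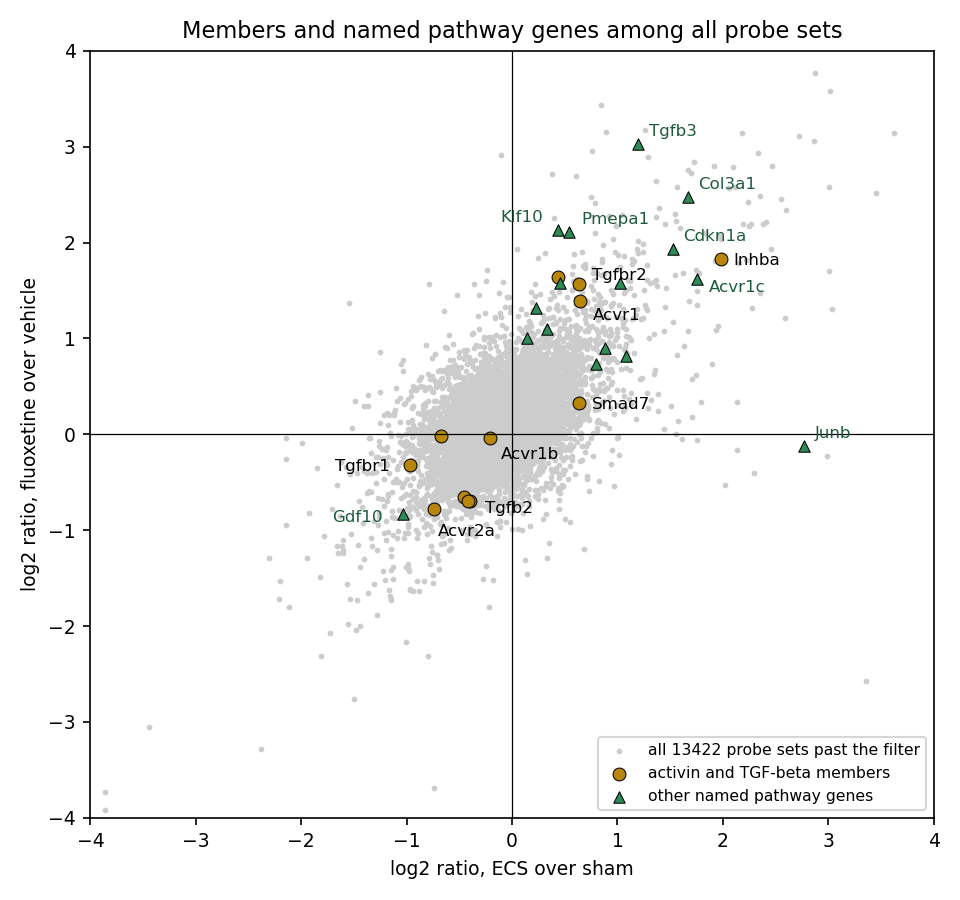
Log2 ratio with ECS (horizontal) against that with fluoxetine (vertical) for 13422 probe sets past the filter (grey), member probe sets (gold circles) and the other named pathway genes (green triangles); 9 points lie outside the axes. Acvr1, Tgfbr2, Tgfb3, Klf10 and Pmepa1 sit higher on the fluoxetine axis than on that of ECS, Inhba lies near the diagonal at 1.98 and 1.83, and Acvr2a, Tgfb2 and Gdf10 lie below 0 on both axes.

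Likeness of pattern was taken as the Euclidean distance over 3 log2 ratios, those of ECS, of fluoxetine and of sham to vehicle after centring, for each member called with both treatments. Among 12431 singly named probe sets, the gene nearest to Inhba was Acvr1c, at a distance of 0.36, followed by Gpnmb, Bgn, Col5a2 and Bdnf at 0.37 to 0.45. Acvr1c, Gpnmb, Bgn and Col5a2 each had a sham signal below 50, and Acvr1c's ECS ratio of 1.16 with such signals taken as 50 lies well short of Inhba's, so that their order is uncertain. Bdnf, the brain-derived neurotrophic factor, had signals above 50 in all 4 pools and log2 ratios of 1.77 and 1.68. Nearest to Acvr1 were Rassf8, Gsn, Ifitm1, Slc41a2 and Sstr2, at 0.07 to 0.14, and nearest to Tgfbr2 were Sox11, Gsn, Tesc, Rassf8 and Sparc, at 0.09 to 0.19. Acvr1 and Tgfbr2 lay 0.24 apart, and Gsn and Rassf8 stood near both. Nearest to Acvr2a were Tubgcp2, Nhsl1, Lor, Rab4a and Hspa2, at 0.06 to 0.10. Each pattern rests on 4 arrays.

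Several members are also made by cells other than granule cells, and the markers of such cells are given beside them. Counts of markers are to be read against 3.84% of all genes higher and 6.47% lower with ECS, and 8.51% higher and 3.26% lower with fluoxetine. For microglia, 4 of 10 markers were higher with fluoxetine and 2 lower with ECS (3 and 0 after median-centring). Their summed signal was 4801.6 in the ECS pool and 5353.9 in the sham pool, and 10079.2 in the fluoxetine pool and 7267.5 in the vehicle pool, or log2 ratios of -0.16 and 0.47. For endothelial cells, 0 of 9 were called with ECS and 2 were higher with fluoxetine (1 higher in each after median-centring), with log2 ratios of the sums of 0.13 and 0.22, and the defining gene Cldn5 had 0.07 and 0.06. For pericytes and smooth muscle, 1 of 7 was lower with ECS (0 after median-centring) and 1 higher with fluoxetine, and the sums had -0.21 and 0.21. For fibroblasts and meninges, Col1a2 and Col3a1 were higher with both treatments and Ogn lower with both. ECS calls among the 6 genes numbered 2 higher and 2 lower, Igf2 (-1.35) joining Ogn. Fluoxetine calls numbered 3 higher, Dcn (1.32) among them, and 1 lower. The sums had -0.27 and 0.49, and they depend much on Ogn. Its part was 20.8 of 579.1 in the ECS pool and 226.6 of 699.4 in the sham pool. In the fluoxetine pool it was 27.7 of 1103.2, and in the vehicle pool 230.1 of 787.3. The sums of astrocyte markers had -0.08 and 0.22, and 7 of the 10 genes were called in neither comparison. Gfap, the filament protein of reactive astrocytes, was higher in both, at 2.24 and 2.43. Aqp4 was called higher for fluoxetine alone (0.86). Slc1a3 went the other way for ECS (-0.64), a call that median-centring removed (-0.53). Granule cell markers had -1.10 and -1.58, with 5 of 6 genes lower in each comparison (3 with ECS after median-centring). For immature granule cells and neuroblasts, 6 of 10 markers were called higher in the ECS pool and 4 in the fluoxetine pool, and those 4 were called in both. Their median log2 ratios were 0.61 and 0.50, whereas the sums, in which Stmn1 is the brightest, had 0.22 and 0.29. The sums with the highest ratios were those of interneurons, at 0.57 and 0.78, and of CA1 and CA3 pyramidal cells, at 0.49 and 0.71. Npy alone made up 4977.7 of the interneuron sum of 12428.9 in the ECS pool, and 757.0 of 8393.3 in the sham pool. In the fluoxetine pool it made up 7521.9 of 18931.9, and in the vehicle pool 870.0 of 11008.0. The median log2 ratios were lower than those of the sums, at 0.18 and 0.29 for interneuron genes and 0.17 and 0.32 for pyramidal cell genes. Among 9 interneuron genes, Npy (2.72 and 3.11) and Gad2 (0.73 and 0.97) were higher with both treatments, and 6 were called in neither comparison. Among 6 pyramidal cell genes, Nectin3 (1.00 and 1.72) and Bok (0.83 and 0.85) were higher with both, and 3 were called in neither. Pou3f1 was lower with both (-1.23 and -1.42). It was dim, and with signals below 50 taken as 50 its ratios were 0.0 and -1.06. The part of these cells in the ratios of the members and of the other pathway genes was not tested.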

How the data were processed

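RNA of the DG was measured on 4 Affymetrix arrays, 1 for each pool. The authors computed the deposited signal intensities with MAS5, Affymetrix's statistical expression algorithm. Single probes were not analysed here, and a genome build was not given in the sources used here. From these intensities, log2 ratios were computed with Python 3.11.15, numpy 2.4.6 and pandas 2.3.3, and plotted with matplotlib 3.10.9. Signals of 0 were set to 0.1. The 64 control probe sets were left out, and probe sets whose signal averaged under 50 on the 4 arrays were dropped, as in the study's methods. A call is a difference of 1.5-fold in the deposited signals. As each group is 1 array, no test was run, no p-value is given, and the number of arrays limits the precision. The ratios, calls and control spread were tried on simulated data, on median-centred arrays and for probe sets already past the filter. The filter and the calls on uncentred signals were not tried in this way.

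Probe sets were named through GEO's annotation of the platform, where 20380 of 22626 probe sets have 1 gene symbol, 691 several and 1555 none; only those with 1 were named. Sequences before annotated starts were RefSeq's, on GRCm38.p6, and 8 of 10 member genes were matched. The members, the pathway list and the marker lists were chosen with earlier results of these data known. Named were all members, other pathway genes at 1.5-fold in the same direction with both treatments or at 2-fold in either, the 5 genes nearest in pattern to each member called with both, and markers; Smad2 and Smad4 were named after their values were seen. Alternatives concerned the scale between arrays, low signals, the filter, 1 probe set per gene, the size of a call and the choice of control array.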

Additional observations from a re-analysis of the deposited data

How the results depend on the processing

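The log2 ratios of the 12 member probe sets kept their sign under median-centring, quantile normalization, a floor of 50 and exchanged control arrays wherever they had been called. Compared with the control spread, 0 of 24 ratios moved further under median-centring or the floor, 1 under quantile normalization and 7 with control arrays exchanged, among them both of Inhba.

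At 2-fold, 4 member probe sets were still called higher with fluoxetine, but 1 with ECS and 1 with both treatments, and 0 were lower with ECS, with fluoxetine or with both. At 1.2-fold, 6 were lower with ECS, 5 were higher with both and 5 lower with both. With no filter, 6 were lower with ECS and 7 higher with fluoxetine, since 9 dim probe sets entered. With the brightest probe set per gene, 2 were lower with fluoxetine, as the 3 probe sets of Tgfb2 then count once. No paired analysis was possible because each group is 1 array.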
